A study of Mus musculus with 8 samples.

Results

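Photoreceptor fate and gene expression depend on a small group of transcription factors, and 10 of their genes were followed here in the degenerating rd10 mouse retina. The genes were Mef2c and Mef2d of the MEF2 family, the homeobox genes Crx and Otx2, the rod genes Nrl and Nr2e3, the bHLH gene Neurod1 and the nuclear receptor genes Rorb, Thrb and Rxrg. They were taken by symbol from the 57010 gene identifiers of the count table, each symbol matched 1 identifier, and all 10 passed the filter on low counts that left 20457 genes for testing. Mef2c was on the list because it had already been seen to be lower in every rd10 group than in wild type, so its differences from wild type are given as a description with no test. The other 9 were chosen by role, with earlier results of these data known.

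Whole retina was profiled by poly(A) RNA sequencing in 4 groups of 2 libraries. The reference group was wild-type (WT) mice at postnatal day 15 (P15), described by the study as littermate controls, and the other groups were homozygous rd10 mice at P15, P18 and P21. The rd10 allele is a missense mutation of Pde6b, the gene of a catalytic subunit of rod cGMP phosphodiesterase, and all rd10 mice carried it. WT retinas were sampled at P15 only, so at P18 and P21 age and genotype changed together and cannot be told apart. In whole tissue, fewer cells of a type and less RNA per cell cannot be told apart either.

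Total counts were 28076947 to 33724562 per library. The retina label held: the summed level of 20 rod genes was 33785 to 82030 CPM (read counts scaled to the same library size in every sample), with 0 of them at 0 in both libraries of a group. Sex was not balanced between the groups. Y-linked genes had 3 to 19 counts in the WT libraries and in replicate 2 of the older rd10 groups, and 5530 to 7193 counts in the other 4 libraries. Genotype and sex therefore cannot be told apart at P15. The rd10 P18 libraries differed more from each other than those of the other groups, with a chi-square of 104 per gene between replicates against 24.6 to 39.6. Values with a term for sex or without 1 library are given where they change a call. The sex term rests on rd10 P18 and P21 alone, the groups with 1 library of each kind, where sex went with the replicate number. It cannot separate genotype from sex at P15.

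OTX2 is needed to form photoreceptors, and CRX then drives genes of rods and cones alike. NRL and its target NR2E3 set the rod program and repress cone genes, while the thyroid hormone receptor THRB and its partner RXRG regulate the choice and arrangement of cone opsins. MEF2 proteins are MADS-box factors that bind with cell-type partners, and in photoreceptors MEF2D is known to act with CRX.

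RefSeq promoter windows (mouse build GRCm38.p6, 250 bases before to 50 bases after the start) were held for all 10 genes, 18 windows in all. Mef2c has 3 annotated starts on chromosome 13, and they are shown because Mef2c had the lowest levels relative to WT and its starts differ in the motifs they carry. Mef2d, Crx and Nr2e3 are shown as the MEF2 relative, the shared photoreceptor factor and the rod factor that had the largest difference from WT among the 9. Capitals mark the core bound by CRX and OTX2 (TAATCC), the NRL core (TGCTGA) and the core shared by NR2E3, ROR and other nuclear receptors (AGGTCA), on either strand, so that TGACCT is AGGTCA and GGATTA is TAATCC read on the other strand. In Nr2e3, which held none of these, capitals mark E-boxes (CANNTG), the element of bHLH factors such as NEUROD1.
Mef2c promoter 1, chr13:83503784-83504083, plus strand: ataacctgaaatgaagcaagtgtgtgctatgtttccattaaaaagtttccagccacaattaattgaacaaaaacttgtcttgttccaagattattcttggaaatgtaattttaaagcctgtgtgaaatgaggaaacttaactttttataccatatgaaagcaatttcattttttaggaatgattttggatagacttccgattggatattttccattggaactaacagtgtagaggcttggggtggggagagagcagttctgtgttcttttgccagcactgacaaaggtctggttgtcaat
Mef2c promoter 2, chr13:83523406-83523705, plus strand: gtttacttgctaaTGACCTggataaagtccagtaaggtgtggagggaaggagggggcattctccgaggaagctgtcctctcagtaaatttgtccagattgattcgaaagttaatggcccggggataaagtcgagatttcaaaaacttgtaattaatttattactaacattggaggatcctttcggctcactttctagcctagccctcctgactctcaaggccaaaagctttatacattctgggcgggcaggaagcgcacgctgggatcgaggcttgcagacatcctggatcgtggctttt
Mef2c promoter 3, chr13:83573357-83573656, plus strand: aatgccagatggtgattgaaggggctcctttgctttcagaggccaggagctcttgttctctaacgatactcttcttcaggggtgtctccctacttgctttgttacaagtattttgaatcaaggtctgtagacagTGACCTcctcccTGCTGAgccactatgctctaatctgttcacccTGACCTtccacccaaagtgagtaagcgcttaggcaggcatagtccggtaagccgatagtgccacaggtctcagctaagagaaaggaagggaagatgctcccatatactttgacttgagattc
Mef2d promoter, chr3:88142122-88142421, plus strand: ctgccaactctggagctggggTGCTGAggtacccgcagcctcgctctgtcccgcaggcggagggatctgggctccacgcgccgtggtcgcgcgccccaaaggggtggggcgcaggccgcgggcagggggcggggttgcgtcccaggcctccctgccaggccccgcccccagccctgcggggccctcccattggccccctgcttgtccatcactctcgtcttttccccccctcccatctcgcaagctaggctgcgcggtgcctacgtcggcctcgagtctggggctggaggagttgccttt
Crx promoter, chr7:15879906-15880205, minus strand: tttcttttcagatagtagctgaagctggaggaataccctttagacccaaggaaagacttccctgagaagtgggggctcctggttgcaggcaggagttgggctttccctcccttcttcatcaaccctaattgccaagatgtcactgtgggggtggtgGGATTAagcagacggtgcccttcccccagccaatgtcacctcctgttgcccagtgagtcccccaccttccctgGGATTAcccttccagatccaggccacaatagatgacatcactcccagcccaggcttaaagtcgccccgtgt
Nr2e3 promoter, chr9:59950030-59950329, minus strand: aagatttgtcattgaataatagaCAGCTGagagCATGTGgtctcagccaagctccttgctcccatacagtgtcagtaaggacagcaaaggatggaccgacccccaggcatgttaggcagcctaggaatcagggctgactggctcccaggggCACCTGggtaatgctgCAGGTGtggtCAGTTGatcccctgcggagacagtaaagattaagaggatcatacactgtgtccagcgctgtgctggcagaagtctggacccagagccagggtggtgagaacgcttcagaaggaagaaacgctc

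The first Mef2c window held none of the 3 cores, the second held AGGTCA once, and the third held it in 2 places together with 1 TGCTGA. The Mef2d window held 1 TGCTGA, and the Crx window held TAATCC in 2 places, starting at bases -94 and -21 from the start. Nr2e3 carried 5 E-boxes. Of the 18 windows, 3 held TAATCC, against 7.06% of 32851 promoter windows in the RefSeq table, counted without those on chromosome 18. Shares of all windows given here refer to these 32851. TGCTGA was in 6 windows of 5 genes (19.5% of all windows), AGGTCA in 4 windows of 3 genes (16.3%) and the E-box in 12 windows of 8 genes (72.3%). The only overlap between different motifs was in the second Rxrg window, where AGGTCA and an E-box share bases. The MEF2 site was searched only in the strict form CTA(A/T)4TAG, with 4 bases in the middle that are each A or T. That form was in no window of the 10 genes and in 0.557% of all windows. Looser forms of the site were not searched. These matches describe the letters in the windows and were not tested as binding sites.

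Mef2c had the widest range of the 10 genes as a fold between libraries. Its level was 104 and 68.8 CPM in the WT P15 libraries, 11.5 and 12.1 CPM in rd10 P15, 19.99 and 18.8 CPM in rd10 P18, and 28.7 and 35.9 CPM in rd10 P21. Every rd10 library was below both WT libraries, and the 3 rd10 ages did not overlap one another, with the lowest values at P15. The mean level was 86.6 ± 25.2 CPM in WT (SD, n = 2) and 11.8 ± 0.40 CPM in rd10 P15. The fitted difference from WT was -2.88 on the log2 scale at P15 (standard error, SE, 0.23), or 7.36-fold lower. It was -2.16 at P18 (SE 0.22, 4.46-fold lower) and -1.42 at P21 (SE 0.22, 2.68-fold lower). With a term for sex, estimated only within rd10 P18 and P21, the same differences were -2.76, -2.10 and -1.37.

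**Figure D1:**
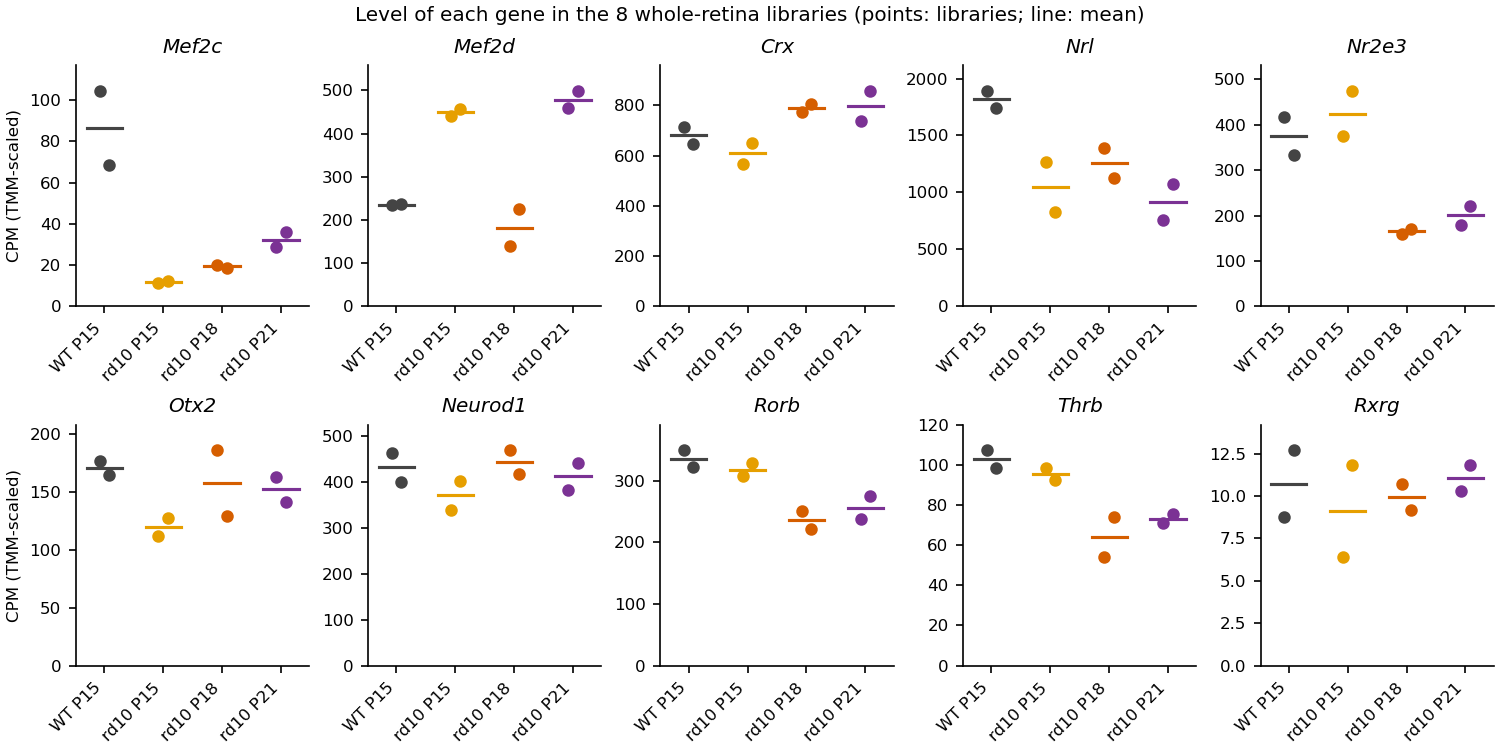
Level of each of the 10 genes in CPM (libraries scaled by TMM, y axis from 0) in the 4 groups on the x axis; each point is 1 library and each line the mean of 2. Mef2c sits at 104 and 68.8 CPM in WT P15 and between 11.5 and 35.9 CPM in the 6 rd10 libraries, Mef2d is at 442 to 498 CPM in rd10 P15 and P21 and at 139 to 236 CPM in the other libraries, and Nr2e3 is at 160 to 222 CPM in rd10 P18 and P21.

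Mef2c was chosen from the level of each rd10 age against WT, and not from the rd10 ages against one another. The same rd10 libraries entered that choice, so tests of Mef2c among the rd10 ages are not fully independent of it. Mef2c was higher at rd10 P21 than at rd10 P15 by 1.46 on the log2 scale (SE 0.22, 95% interval 0.95 to 1.96, edgeR quasi-likelihood test with Benjamini-Hochberg adjustment, adjusted p = 0.0411). That call was lost without either rd10 P15 library (adjusted p = 0.236 without replicate 1 and 0.257 without replicate 2), without either rd10 P21 library (0.0971 and 0.104) and with a term for sex (0.0601), all by edgeR, while the difference stayed between 1.29 and 1.61. In a fit without 1 library, the library left alone in its group was assumed to vary like those of the other groups. The steps between them did not pass: 0.72 from P15 to P18 (edgeR adjusted p = 0.23) and 0.74 from P18 to P21 (edgeR adjusted p = 0.429). Mef2c has no exon that overlaps another annotated gene.

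Mef2c is known to be expressed in rods, where NRL regulates it, and also in microglia and blood vessel endothelium. The summed level of 9 microglia genes was 72.7 and 83.7 CPM in WT, 103 and 106 CPM in rd10 P15, 260 and 265 CPM in rd10 P18, and 198 and 380 CPM in rd10 P21. Of these 9 genes, 0 were at 0 in both libraries of a group. The microglia sum was thus lowest in WT, where Mef2c was highest, and within rd10 both were lowest at P15. The summed level of 8 endothelial genes was 321 to 394 CPM in WT, 394 to 440 CPM in rd10 P15, 316 to 405 CPM in rd10 P18 and 499 to 583 CPM in rd10 P21, again with 0 genes at 0 in both libraries of a group. The part of these cells in the Mef2c values was not tested.

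Mef2d had another pattern. Its level was 235 and 236 CPM in WT, 442 and 458 CPM in rd10 P15, 139 and 225 CPM in rd10 P18, and 458 and 498 CPM in rd10 P21. The rd10 P15 and P21 libraries were above every WT and rd10 P18 library, and the rd10 P18 libraries were below WT and far from each other. The level at P18 was lower than in rd10 P15 by 2.47-fold (log2 difference -1.30, SE 0.21, 95% interval -1.79 to -0.82, edgeR adjusted p = 0.0466). Without rd10 P18 replicate 1 the difference was -0.999 and fell short of the size threshold. The call was lost in edgeR without WT replicate 1 (adjusted p = 0.0739), WT replicate 2 (0.0779), either rd10 P15 library (0.189 for replicate 1 and 0.243 for replicate 2) or rd10 P21 replicate 1 (0.0515).

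The differences of Mef2d from WT did not pass in edgeR: 0.93 at P15 (SE 0.21, edgeR adjusted p = 0.114), -0.37 at P18 (edgeR adjusted p = 0.405) and 1.02 at P21 (SE 0.21, edgeR adjusted p = 0.0946). DESeq2 gave adjusted p = 0.00075 at P21. Without rd10 P18 replicate 1 the edgeR adjusted p at P21 was 0.00147, and without rd10 P18 replicate 2 it was 0.00153. From P18 to P21 the difference was 1.39 (SE 0.21, edgeR adjusted p = 0.144), and it passed without rd10 P18 replicate 1 (1.09, edgeR adjusted p = 0.00428) or replicate 2 (1.78, edgeR adjusted p = 8.02e-05). It also passed with a term for sex (1.43, edgeR adjusted p = 0.0347).

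Per kilobase of exon, which allows genes to be compared, Mef2d made up 70.8% and 73.6% of the summed level of the 4 MEF2 genes in WT. In rd10 its share was 87.8% and 87.7% at P15, 71.5% and 79.6% at P18 and 87.5% and 88.5% at P21. Mef2c made up 11.99% and 8.16% in WT. In rd10 its share was 0.869% and 0.880% at P15, 3.91% and 2.54% at P18 and 2.09% and 2.43% at P21. Mef2c is the smaller in every library, though its exons span 15715 bases when all annotated isoforms are joined, which lowers its value per kilobase. Mef2a was at 6.17 to 8.34 CPM per kilobase over the 8 libraries, and its share of the family ran from 8.08% to 18.99%.

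**Figure D2:**
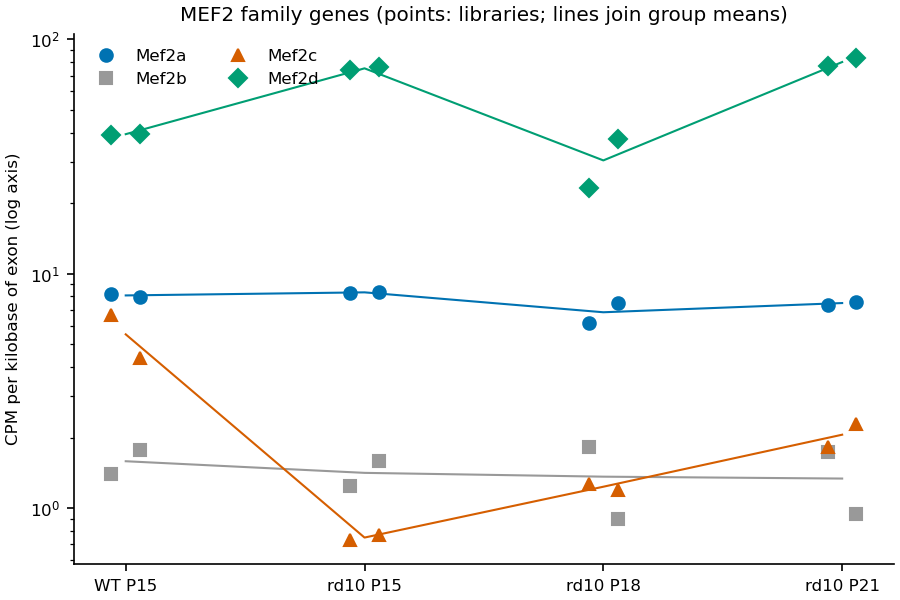
CPM per kilobase of exon of the 4 MEF2 genes (log axis) in the 4 groups; points are libraries and lines join group means. Mef2d is the highest of the 4 in every library, Mef2c goes from 6.65 and 4.38 in WT to 0.731 and 0.767 in rd10 P15, and Mef2a stays between 6.17 and 8.34.

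Of 8 other MEF2 family genes and regulators (Mef2a, Mef2b, the class IIa histone deacetylase genes Hdac4, Hdac5, Hdac7 and Hdac9 and the kinase genes Mapk7 and Mapk14), 0 passed in any of the 6 comparisons by edgeR or by DESeq2. At an unadjusted p under 0.05, the counts against WT were 3, 4 and 3 of 8 in order of age (12.3%, 17.4% and 11.8% of all genes). Their median log2 difference from WT was 0.0060 at P15, -0.22 at P18 and -0.10 at P21, with medians of -0.0061, 0.011 and 0.00097 over all genes tested. Mapk7, whose product ERK5 phosphorylates MEF2 proteins, had the largest value at P18, 0.92 (edgeR adjusted p = 0.121). Hdac9, which encodes a MEF2 corepressor, was at -0.52 (edgeR adjusted p = 0.129).

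Of the 9 genes other than Mef2c, 0 passed at P15 against WT (0.23% of all genes tested passed), 1 passed at P18 (1.48%) and 0 passed at P21 (0.386%). A pass required an edgeR adjusted p under 0.05 and an absolute log2 difference over 1. At an unadjusted p under 0.05 the counts were 3, 3 and 5 of 9, against 12.3%, 17.4% and 11.8% of all genes, and DESeq2 passed 0, 1 and 1. The libraries of the 2 groups did not overlap for 4, 6 and 7 of the 9 genes, near or above the share of all genes tested (49.7%, 47% and 49.2%). Their median log2 difference from WT was -0.16 at P15, -0.37 at P18 and -0.16 at P21. Among the rd10 ages and over all 10 genes, 2 passed from P15 to P18 (0.591% of all genes), 1 from P15 to P21 (0.401%) and 0 from P18 to P21 (0.0196%). The 2 were Mef2d and Nr2e3. The 1 was Mef2c, which had been chosen from the same rd10 libraries against WT, so none of the other 9 passed from P15 to P21. From P18 to P21, 2 genes, Mef2c and Mef2d, were under an unadjusted p of 0.05 (10.8% of all genes), and DESeq2 passed 1, Mef2d.

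**Figure D3:**
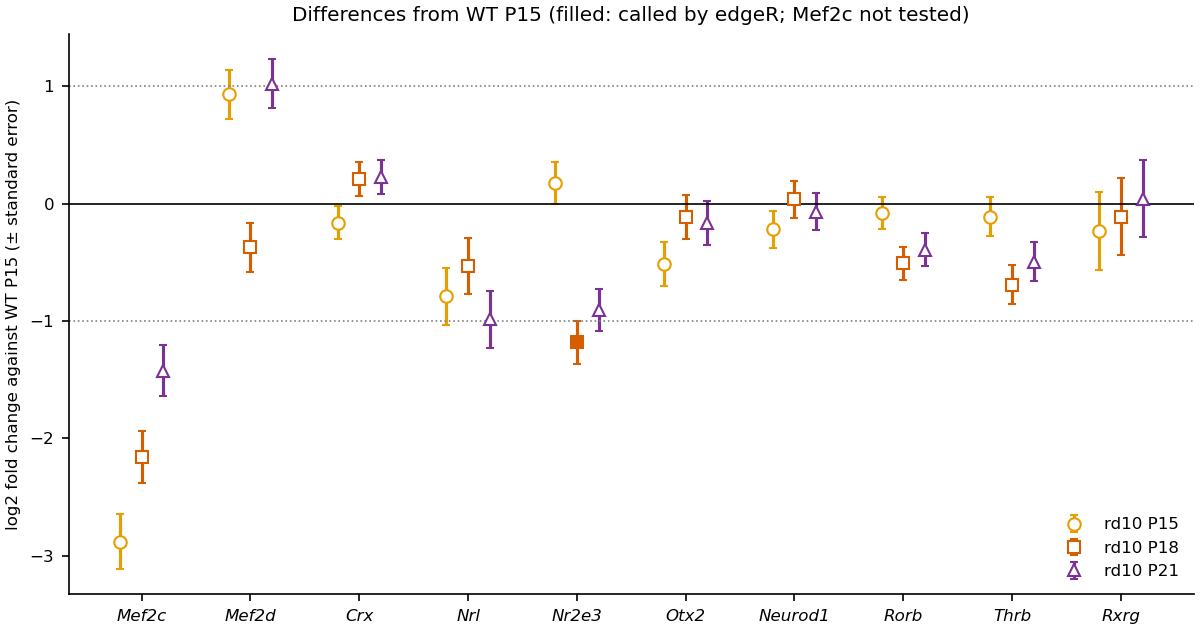
Log2 fold change of the 10 genes against WT P15 on the y axis, with bars of 1 standard error, for rd10 P15 (circles), P18 (squares) and P21 (triangles); dotted lines mark the size threshold of 1 in each direction. Mef2c (-2.88, -2.16 and -1.42) lies lowest and was not tested; the filled symbol, Nr2e3 at P18 (-1.18), is the 1 value that passed.

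Nr2e3, the rod nuclear receptor that represses cone genes, was the gene that passed at P18. Its level was 418 and 334 CPM in WT, 374 and 474 CPM in rd10 P15, 160 and 171 CPM in rd10 P18, and 179 and 222 CPM in rd10 P21. WT and rd10 P15 overlapped, and all 4 libraries of the later ages lay below them. Nr2e3 was lower at P18 than in WT by 2.27-fold (log2 difference -1.18, SE 0.18, 95% interval -1.60 to -0.76, edgeR adjusted p = 0.0279). It was also lower than in rd10 P15, by 2.56-fold (log2 difference -1.36, SE 0.18, 95% interval -1.78 to -0.93, edgeR adjusted p = 0.0268). At P15 the difference from WT was 0.17 (95% interval -0.24 to 0.59).

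The P21 values of Nr2e3 did not pass in edgeR, at -0.91 against WT (adjusted p = 0.0909) and -1.08 against rd10 P15 (adjusted p = 0.0603). The second of these passed with a term for sex (-1.19, edgeR adjusted p = 0.042), by DESeq2 (adjusted p = 2.66e-05), and without rd10 P18 replicate 1 or replicate 2 (edgeR adjusted p = 0.0338 and 0.0336). The P18 call against WT was lost without WT replicate 1 (edgeR adjusted p = 0.185), WT replicate 2 (0.0624) or rd10 P18 replicate 1 (0.0686) and with a term for sex (0.0511), over values from -1.33 without WT replicate 2 to -1.002 without WT replicate 1. The P18 call against rd10 P15 was lost without either rd10 P15 library (edgeR adjusted p = 0.0964 for replicate 1 and 0.173 for replicate 2) or without rd10 P18 replicate 1 (0.0827).

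Nrl, which encodes the leucine zipper factor that specifies rods, was at 1890 and 1745 CPM in WT, 1271 and 832 CPM in rd10 P15, 1389 and 1129 CPM in rd10 P18, and 759 and 1078 CPM in rd10 P21. All 6 rd10 libraries were below both WT libraries. Among the rd10 ages, P15 overlapped both P18 and P21, while both P21 libraries were below both P18 libraries. The log2 differences from WT were -0.79 (SE 0.24, edgeR adjusted p = 0.231), -0.53 (SE 0.24, edgeR adjusted p = 0.306) and -0.98 (SE 0.24, edgeR adjusted p = 0.14), and none passed. The 95% interval at P21 was -1.54 to -0.43.

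Crx, the homeobox gene of rods and cones, was at 714 and 648 CPM in WT, 567 and 652 CPM in rd10 P15, 774 and 805 CPM in rd10 P18, and 737 and 857 CPM in rd10 P21. The WT and rd10 P15 libraries overlapped, and the 4 later libraries lay above WT. The log2 differences from WT were -0.16 (95% interval -0.49 to 0.17), 0.21 (-0.11 to 0.54) and 0.23 (-0.10 to 0.55), and none passed.

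Otx2, which acts upstream of Crx and is also used by bipolar cells and the retinal pigment epithelium, was at 177 and 164 CPM in WT, 111 and 127 CPM in rd10 P15, 186 and 129 CPM in rd10 P18, and 163 and 141 CPM in rd10 P21. Its rd10 P15 libraries were the 2 lowest of the 8. The log2 difference from WT at P15 was -0.51 (SE 0.19, 95% interval -0.94 to -0.09, edgeR adjusted p = 0.313). The summed level of 8 pigment epithelium genes was 29.9 and 110 CPM in WT, 168 and 202 CPM in rd10 P15, 18.2 to 30.5 CPM in rd10 P18 and 26.3 to 30.9 CPM in rd10 P21, with 0 genes at 0 in both libraries of a group. It was highest where Otx2 was lowest, and its part in the Otx2 values was not tested. The exons of Otx2 share 154 bases with its antisense neighbour Otx2os1, whose count was at most 16.1% of that of Otx2, and strand-specific counting is not stated.

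Neurod1, a bHLH gene that photoreceptors need to survive, was at 465 and 401 CPM in WT, 340 and 404 CPM in rd10 P15, 470 and 418 CPM in rd10 P18, and 383 and 443 CPM in rd10 P21. Every rd10 group overlapped WT. The largest log2 difference from WT was -0.22 at P15 (95% interval -0.58 to 0.14), and at P21 it was -0.07 (-0.42 to 0.29). Neurod1 exons share 201 bases with Cerkl, whose count was at most 18.1% of that of Neurod1, so reads in those bases could be counted for either.

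Rorb, a nuclear receptor gene acting upstream of Nrl, was at 350 and 323 CPM in WT, 307 and 328 CPM in rd10 P15, 251.04 and 222 CPM in rd10 P18, and 238 and 275 CPM in rd10 P21. The 4 later libraries lay below the 4 libraries of P15 mice. The log2 difference from WT was -0.51 at P18 (SE 0.14, edgeR adjusted p = 0.114) and -0.39 at P21 (SE 0.14, edgeR adjusted p = 0.314).

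Thrb, whose product is needed for M-opsin cones, was at 107 and 98.6 CPM in WT, 98.4 and 92.4 CPM in rd10 P15, 53.9 and 73.9 CPM in rd10 P18, and 70.9 and 75.4 CPM in rd10 P21. As for Rorb, all 4 later libraries lay below those of P15 mice. The log2 difference from WT was -0.69 at P18 (SE 0.17, edgeR adjusted p = 0.0851) and -0.49 at P21 (SE 0.17, edgeR adjusted p = 0.284).

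Rxrg, the retinoid receptor gene of cones, had the fewest counts of the 10 genes, 202 to 392 per library. It was at 8.76 and 12.7 CPM in WT, 6.43 and 11.8 CPM in rd10 P15, 10.7 and 9.20 CPM in rd10 P18, and 10.3 and 11.8 CPM in rd10 P21, with every group overlapping WT. The 95% intervals of its log2 differences from WT were wide, -0.99 to 0.52 at P15, -0.86 to 0.64 at P18 and -0.71 to 0.79 at P21, and differences inside them were not detectable at this depth.

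Cone genes were counted beside Thrb and Rxrg. Of 10 cone phototransduction genes, 1 passed as lower at P15 against WT (0.0929% of all genes passed as lower), 1 at P18 (0.332%) and 0 at P21 (0.142%) by edgeR. At an unadjusted p under 0.05, in either direction, the counts were 7, 7 and 3 of 10 (12.3%, 17.4% and 11.8% of all genes), and DESeq2 passed 2, 1 and 0. The gene that passed was Arr3, cone arrestin, at -1.71 on the log2 scale at P15 (edgeR adjusted p = 0.015) and -1.39 at P18 (edgeR adjusted p = 0.015). At P21 Arr3 was -0.22 from WT, and it was 1.49 above rd10 P15 (edgeR adjusted p = 0.0193). The median log2 difference of the 10 cone genes from WT was -0.62 at P15, -0.50 at P18 and -0.01 at P21.

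The levels of the 10 factors were also set beside those of rod genes. The 20 rod genes summed to 82030 and 67226 CPM in WT, 51334 and 55887 CPM in rd10 P15, 42768 and 44224 CPM in rd10 P18, and 33785 and 42093 CPM in rd10 P21, so that the group means were 71.8%, 58.3% and 50.8% of WT. By edgeR 0, 3 and 5 of the 20 passed as lower at P15, P18 and P21 (0.0929%, 0.332% and 0.142% of all genes), among them Reep6 (-1.14 at P21, edgeR adjusted p = 0.0464) and Gnat1, rod transducin (-1.15 at P21, edgeR adjusted p = 0.0332). Their medians were -0.41, -0.78 and -1.05.

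Each factor was then taken relative to the rod genes, with no test. The measure was its log2 CPM minus the mean log2 CPM of the 20 rod genes in the same library. Mef2c stayed below WT by this measure, at -2.45 at P15, -1.40 at P18 and -0.43 at P21. Nrl was at -0.43, 0.19 and -0.04, with differences that were about as large as the spread of the libraries or smaller (SD 0.12 in WT, 0.52 at P15, 0.19 at P18 and 0.15 at P21). Nr2e3 was at 0.57, -0.45 and 0.06, below WT at P18 and close to it at P21. Thrb was at 0.29, 0.02 and 0.47, and Rorb at 0.31, 0.21 and 0.57.

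The other 5 genes, like Rorb and Thrb, had group means above WT on this measure at P18 and P21. Crx was at 0.23, 0.94 and 1.19 relative to rod genes, Neurod1 at 0.17, 0.76 and 0.90, Otx2 at -0.12, 0.59 and 0.80, and Rxrg at 0.12, 0.63 and 1.03. Mef2d was at 1.33, 0.31 and 1.98, the highest of the 10 at P15 and P21 and below those 4 at P18. At P21 each library of these 5 genes, and of Rorb and Thrb, was above both WT libraries. The rod genes themselves were lower there (median log2 difference -1.05 from WT), so a gene with unchanged CPM rises on this measure. In CPM the P21 log2 differences from WT were 1.02 for Mef2d, 0.23 for Crx, 0.04 for Rxrg and -0.07 for Neurod1. They were -0.16 for Otx2, -0.39 for Rorb and -0.49 for Thrb. The share of all genes above WT on this measure was not counted.

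**Figure D4:**
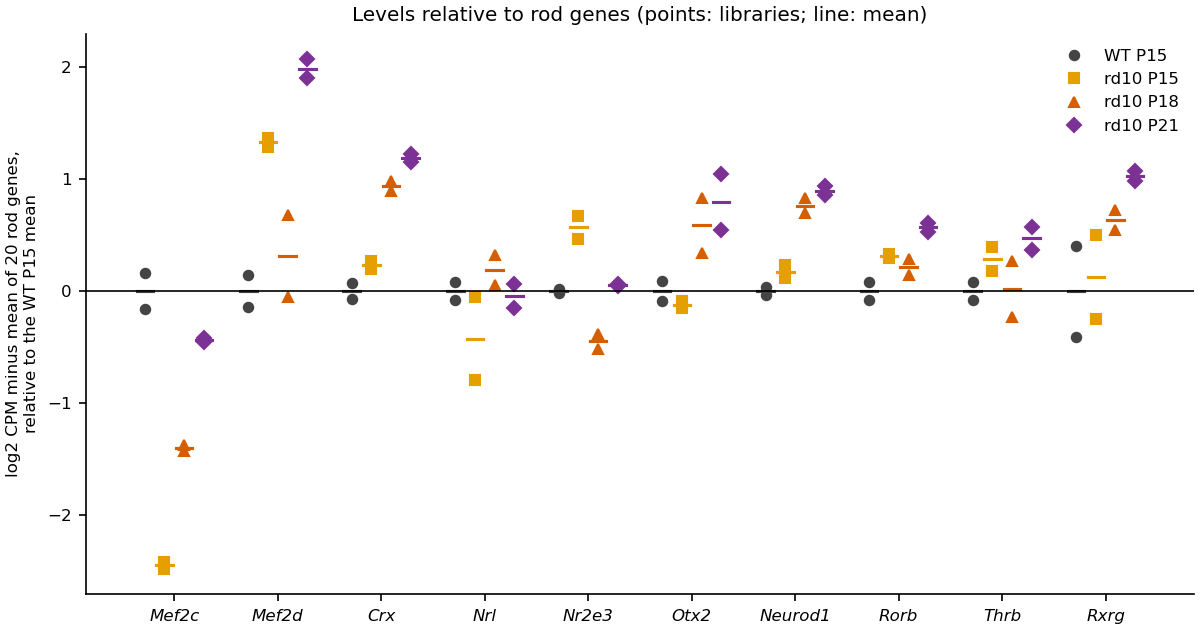
Log2 CPM of each of the 10 genes minus the mean log2 CPM of 20 rod genes in the same library, set to 0 at the WT P15 mean; points are libraries and lines group means. Mef2c is lowest at P15 (-2.45) and nears WT at P21 (-0.43), Nrl and Nr2e3 are at -0.04 and 0.06 at P21, and Mef2d (1.98) and Crx (1.19) are highest at P21.

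Per kilobase of exon the WT levels ran, from high to low, Nrl (319 ± 17.98 CPM per kilobase, SD, n = 2), Crx (216 ± 14.8), Neurod1 (159 ± 16.5), Nr2e3 (112 ± 17.6), Otx2 (40.4 ± 2.12), Mef2d (39.4 ± 0.19), Rorb (30.4 ± 1.70), Thrb (13.9 ± 0.83), Mef2c (5.51 ± 1.60) and Rxrg (4.67 ± 1.21). Otx2 and Mef2d, and Mef2c and Rxrg, did not differ beyond their spread, and the libraries of the other neighbours in this order did not overlap. The order depends on exon lengths that join all annotated isoforms (5689 bases for Nrl and 3160 for Crx), and the isoforms in use were not measured. In rd10 P15 Mef2c stood at 0.749 ± 0.03 CPM per kilobase, below Rxrg (3.98 ± 1.67). Mef2d at 75.1 ± 1.90 then stood above Otx2 at 28.3 ± 2.64. Nrl (185 ± 54.6) and Crx (193 ± 19.001) overlapped in rd10 P15.

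The 15130 tested genes with a mean count of at least 50 were ranked by how closely their log2 CPM profile over the 8 libraries followed that of Mef2c, as the root mean square difference of profiles centred on their own means. Mef2c itself varied by 1.07 around its mean. The closest were Zan (0.28), Guca1a (0.35), Gm5460 (0.36), Traf3ip3 (0.37) and Gm28875 (0.42). Guca1a encodes a calcium sensor that activates photoreceptor guanylate cyclase, and its mean level was 618 CPM in WT, 129 CPM in rd10 P15, 228 CPM in rd10 P18 and 232 CPM in rd10 P21. Zan had 12.3 CPM in WT, 2.33 CPM in rd10 P15, 2.74 CPM in rd10 P18 and 5.65 CPM in rd10 P21. The 8 libraries of these profiles are the ones in which Mef2c was seen to be low, and the ranking is a description.

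**Figure D5:**
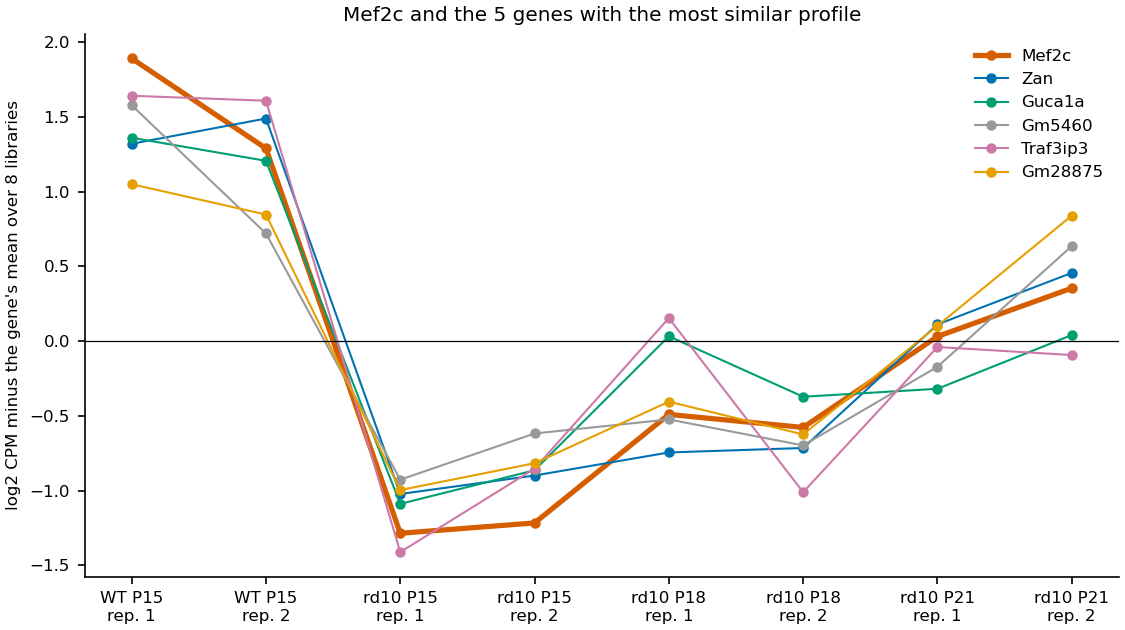
Log2 CPM minus each gene's mean over the 8 libraries (y axis) for Mef2c (thick line) and the 5 genes with the most similar profile, library by library on the x axis. All 6 genes are highest in the WT P15 libraries; Guca1a goes with Mef2c from 618 CPM in WT to 129 CPM in rd10 P15.

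The same ranking for Nrl, which varied by 0.44 around its mean, gave A230056P14Rik (0.13), Ripk4 (0.17) and the unnamed identifier ENSMUSG00000120231 (0.18). All 3 had low levels, from 3.61 to 7.92 CPM in WT. None of the 20 rod genes described above was among them.

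Of 10 further photoreceptor regulators, 0 passed in any comparison by edgeR, with 3, 7 and 4 at an unadjusted p under 0.05 against WT in order of age (12.3%, 17.4% and 11.8% of all genes) and 0 passed by DESeq2 in those 3. All 10 had negative log2 differences from WT at P18 and at P21, with medians of -0.17 at P15, -0.59 at P18 and -0.46 at P21. Prdm1, which holds precursors to a photoreceptor rather than a bipolar fate, was at -0.95 at P18 (edgeR adjusted p = 0.0937). Sp4, a partner of photoreceptor factors, had the largest value at P18, -1.28, with a wide error (SE 0.73, edgeR adjusted p = 0.438).

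Of 6 nuclear receptor genes related to Rorb, Thrb, Rxrg and Nr2e3, 0 passed in any comparison by edgeR or DESeq2 (2, 1 and 0 at an unadjusted p under 0.05 against WT, with 12.3%, 17.4% and 11.8% of all genes). Their medians were -0.16, 0.03 and -0.09. Of 27 transcription factors of the inner retina and Müller glia, 0 passed by edgeR (8, 3 and 6 at an unadjusted p under 0.05 against WT, beside the same shares of all genes, and 0, 0 and 1 by DESeq2), and 25, 17 and 25 of the 27 had positive differences from WT, with medians of 0.23, 0.08 and 0.25. Sox9, a Müller glia factor, was at 0.86 at P18 (edgeR adjusted p = 0.103) and 1.04 at P21 (edgeR adjusted p = 0.108).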

How the data were processed

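RNA was measured in 8 whole-retina libraries, 2 in each of 4 groups taken from the sample labels. The authors deposited 1 table of raw read counts per Ensembl gene. HISAT2 is named in the submitters' processing notes, and the sources used here do not give its version, the genome build, the annotation, the counting tool or its strand setting. GENCODE M21 named 52081 of the 57010 identifiers. Genes were filtered with filterByExpr (minimum count 10), scaled by TMM and tested with the quasi-likelihood test of edgeR 4.0.16 (R 4.3.3) in 1 fit of all 8 libraries, with 4 residual degrees of freedom and Benjamini-Hochberg adjustment over 20457 genes. A gene passed with an adjusted p under 0.05 together with a log2 fold change over 1 in size, as in the study, which used DESeq2. The fit was tested on simulated data. DESeq2 1.42.0, other scalings, no filter, fits of the 4 libraries compared, a term for sex, the replicate number as a block and leaving out each library were tried as alternatives. Overlapping genes were found in GENCODE M21, and promoter windows came from a RefSeq table of GRCm38.p6.

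The 10 genes and all gene lists were chosen with earlier results of these data known. Named beside the 10 were the genes most like Mef2c (5) and Nrl (3) in profile and, from each other list described, genes that passed in any comparison, or otherwise those with the largest absolute change at P18. The series calls the replicates biological and does not say more of their origin, so p-values measure the spread between these libraries. An exact permutation test of 2 against 2 libraries cannot go below p = 0.333 and was not used.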

Additional observations from a re-analysis of the deposited data

How the results depend on the processing

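Counts were recomputed under every alternative, as were the gene differences from WT, and among the rd10 ages those of Mef2c, Mef2d and Nr2e3. A pass by adjusted p alone, with no fold threshold, was tried for the counts and changed none of them. Of the gene values, 531 kept their direction and their side of the threshold, 16 came to pass, 22 ceased to pass and 16 changed direction. Of the counts of genes passing, 64 stayed within 1.5 times and 32 did not, and the cause was not tested. In the alternatives tried Mef2c kept its direction in every comparison.

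For rd10 P18 against WT, where 1 of the 9 genes passed, 0 passed when only the 4 libraries compared were fitted and 0 with a term for sex, and leaving out 1 library gave 0 to 1. For rd10 P21 against WT the count of 0 became 1 by DESeq2, 1 with no filter on low counts and 1 with only the 4 libraries, and leaving out 1 library gave 0 to 1. For rd10 P18 against rd10 P15 the count of 2 became 0 with only the 4 libraries, and leaving out 1 library gave 0 to 2. For rd10 P21 against rd10 P15 the count of 1 became 2 by DESeq2, 2 with no filter and 2 with only the 4 libraries, and leaving out 1 library gave 0 to 2. With a term for sex the count there was still 1, but the gene was Nr2e3 and no longer Mef2c. For rd10 P21 against rd10 P18 the count of 0 became 1 by DESeq2, 1 with no filter and 1 with a term for sex, and leaving out 1 library gave 0 to 1.

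Same-numbered libraries did not deviate together (correlations across genes from -0.025 to 0.059), so the replicate numbers were not taken to pair the samples. With the replicate number as a block the count for rd10 P21 against rd10 P15 was 0 (Mef2c, 1.46, edgeR adjusted p = 0.0651), and no other call among the 10 genes changed.

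The values that changed direction were all small. Without TMM scaling (library size only) the median of all genes moved to 0.135 at P18 and 0.112 at P21 against WT, and Otx2 at P18 (0.016), Rxrg at P18 (0.011) and Neurod1 at P21 (0.045) changed sign. With a term for sex, Thrb at P15 was 0.16 and Mef2d at P21 against rd10 P15 was -0.11. Leaving out 1 library, the log2 difference from WT at P15 ran from -0.0066 to 0.35 for Nr2e3 and from -0.74 to 0.14 for Rxrg. At P18 it ran from -0.40 to 0.12 for Otx2, from -0.065 to 0.16 for Neurod1 and from -0.34 to 0.18 for Rxrg. At P21 it ran from -0.17 to 0.056 for Neurod1 and from -0.19 to 0.33 for Rxrg.

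Over all genes, the numbers passing in edgeR and in DESeq2 were 47 and 430 for rd10 P15, 303 and 949 for rd10 P18 and 79 and 570 for rd10 P21 against WT. They were 121 and 594 for rd10 P18 and 82 and 532 for rd10 P21 against rd10 P15, and 4 and 116 for rd10 P21 against rd10 P18. With a term for sex the edgeR numbers, in that order, were 4, 191, 36, 275, 156 and 12, with the replicate block 16, 232, 18, 118, 66 and 6, with only the 4 libraries 206, 143, 129, 74, 182 and 2, and with no filter 144, 383, 160, 173, 125 and 19. Leaving out 1 library they ran from 6 to 246, 39 to 1250, 4 to 210, 16 to 977, 10 to 217 and 3 to 963. For rd10 P21 against WT, 50 of the 79 genes were higher with TMM and 67 of 91 with library size only. Without rd10 P18 replicate 2 the comparison of rd10 P18 with WT had 1250 genes, 482 of them higher, against 235 of 303 with all libraries, and that with rd10 P15 had 977 genes, 318 of them higher, against 107 of 121. Without rd10 P18 replicate 1 these comparisons had 250 and 115 genes.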
